A study of Mus musculus with 4 samples.

Results

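The 41 genes described here encode subunits of the mitochondrial respiratory chain and of the ATP synthase that are carried in the nucleus. They were chosen by symbol, from textbook membership of complexes I, III, IV and V and not by a rule on measured values. Earlier results of these data were known when they were chosen. All 41 were found among the 55029 gene identifiers of the authors' table. By complex they comprised 20 genes of complex I, 7 of complex III together with cytochrome c, 9 of complex IV and 5 of complex V.

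RNA was sequenced from macrophages derived from mouse MCA fibrosarcoma tumours, with the cell line label 9609 parent and the genotype label WT. In culture, 2 samples received MEK1-hi exosomes and 2 received MEK1-low exosomes, the latter also marked GFP, exosomes being small vesicles that cells release and MEK1 being the kinase upstream of ERK. There were no macrophages without exosomes among the 4 samples, and the GFP mark cannot be told apart from the MEK1 content. The question is whether transcripts of the recipient macrophages depend on how much MEK1 the exosomes carry. Separate cultures or animals are not named in the labels, so the authors' p-values may cover technical spread only.

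Complex I takes electrons from NADH and complex III passes them through cytochrome c to complex IV, which gives them to oxygen. The protons pumped on the way drive complex V, the ATP synthase. A handful of catalytic subunits are encoded on mitochondrial DNA, and all other subunits are made in the cytosol from nuclear genes and imported. In macrophages the balance between this chain and glycolysis is known to shift with inflammatory activation.

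Levels are the authors' group values in FPKM, fragments per kilobase of transcript scaled to library size. With 1 value per group, no level has a spread between samples, and the depth of each sample is unknown. A gene is described as called where the authors' Cuffdiff test covered it and its deposited q-value was under 0.05. Log2 fold changes are MEK1-hi over MEK1-low, computed as log2(FPKM + 1), which understates the change of low genes. Macrophage markers were abundant (Cd68, a lysosomal glycoprotein, at 1728 FPKM after MEK1-low and 1755 FPKM after MEK1-hi exosomes). Of the 8 macrophage markers 1 was called, beside 2.44% of all loci tested, namely Cd14, the lipopolysaccharide co-receptor, at 213 and 136 FPKM. The Fc receptor gene Fcgr1 had the higher value after MEK1-hi exosomes, at 107 and 153 FPKM (p = 0.011 and q = 0.236 in the authors' deposited table). The lower values of Csf1r, the receptor for CSF1, at 855 and 672 FPKM, and of Adgre1, which encodes F4/80, at 387 and 318 FPKM, were not called. The summed values after MEK1-low and MEK1-hi exosomes were 9.44 and 8.61 FPKM for 8 fibroblast or fibrosarcoma markers, 7.005 and 5.02 FPKM for 7 T cell markers, and 73.4 and 53.5 FPKM for 7 neutrophil markers. They were 2.25 and 2.12 FPKM for 4 B cell markers, 1.81 and 1.77 FPKM for 4 NK cell markers, and 4.39 and 4.69 FPKM for 5 dendritic cell markers. S100a8, at 35.5 and 22.6 FPKM (p = 0.00405 and q = 0.118 in the authors' deposited table), and Csf3r, at 37.8 and 30.8 FPKM, made up nearly all of the neutrophil sum. Ly6g and S100a9 of that list and Ncr1 of the NK cell list were listed at 0 in both groups. Most of the T cell sum was Cd4, at 6.52 and 4.52 FPKM, and most of the B cell sum Cd79b, at 2.25 and 2.09 FPKM. Clec9a, at 3.97 and 4.35 FPKM, and Klrb1c, at 1.68 and 1.43 FPKM, both in joined loci, made up most of the dendritic and NK cell sums. The part of these markers in the members' values was not tested.

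Before the values of the 2 groups, a property of the loci bears on how the levels can be read. Several of these genes have processed copies elsewhere in the genome, made when an mRNA was reverse transcribed and inserted. The search for copies aligned each member's principal mRNA in GENCODE M21 (mm10) with transcripts of other annotated genes, in the sense direction only. Transcripts of the members and of other subunits of complexes I, II, III and V were not among those it was aligned with. A copy was taken as a transcript at another locus matching over at least 150 bases at 95% identity or more. Of the 41 members 10 had such a copy, and 7 had one at 1 FPKM or more in either group. The coding stretches below show how alike they are, each of 90 bases, placed where the member and the copy differ most and at the start codon where their aligned coding parts do not differ. Capitals mark the bases at which the member and its copy differ.

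Cox7c: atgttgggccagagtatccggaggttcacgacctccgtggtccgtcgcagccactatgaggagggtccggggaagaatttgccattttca
Gm12338: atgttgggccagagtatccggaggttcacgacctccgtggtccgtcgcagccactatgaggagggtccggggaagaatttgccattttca
Cox5b: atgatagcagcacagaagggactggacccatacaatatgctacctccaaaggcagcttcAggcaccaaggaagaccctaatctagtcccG
Gm11273: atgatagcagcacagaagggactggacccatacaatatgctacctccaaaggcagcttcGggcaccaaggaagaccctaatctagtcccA
Cycs: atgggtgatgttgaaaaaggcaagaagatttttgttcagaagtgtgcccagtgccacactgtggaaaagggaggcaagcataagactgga
Gm10053: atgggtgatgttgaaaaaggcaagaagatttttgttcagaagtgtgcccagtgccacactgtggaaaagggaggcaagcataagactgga
Ndufs3: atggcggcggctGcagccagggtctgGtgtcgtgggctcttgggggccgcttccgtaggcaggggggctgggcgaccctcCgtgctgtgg
Gm12251: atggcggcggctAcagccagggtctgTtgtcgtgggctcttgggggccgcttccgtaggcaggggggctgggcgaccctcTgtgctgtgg
Uqcrb: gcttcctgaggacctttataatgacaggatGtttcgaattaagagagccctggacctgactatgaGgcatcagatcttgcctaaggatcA
Gm2962: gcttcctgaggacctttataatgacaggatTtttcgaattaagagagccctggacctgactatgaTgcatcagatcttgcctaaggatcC

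The Cox7c and Cycs stretches are identical to their copies over all 90 bases. In the aligned part of 192 bases, Cox7c and Gm12338 differed at 0 positions, and over 946 aligned bases Cycs and Gm10053 differed at 1. Cox5b and Gm11273 differed at 3 of 390 aligned bases, Ndufs3 and Gm12251 at 11 of 792, and Uqcrb and Gm2962 at 6 of 336.

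For 5 of the 10 members with copies, the summed value of the copies exceeded that of the member in each group. The copies of Cox7b, Atp5c1 and Ndufb3 were under 1 FPKM. Cox7c, a small subunit of complex IV on chromosome 13 (86044816 to 86046904), stood at 22.3 FPKM after MEK1-low and 22.6 FPKM after MEK1-hi exosomes. Its copy Gm12338, annotated as a processed pseudogene on chromosome 11 (75599763 to 75599954), stood at 796 and 723 FPKM, 35.7 and 31.9 times the value of Cox7c. Cycs, which encodes cytochrome c (chromosome 6, 50562563 to 50566538), stood at 1.33 and 1.37 FPKM, and its copy Gm10053, annotated as protein coding on chromosome 19 (24875686 to 24876631), at 53.7 and 54.0 FPKM. FPKM divides by length, and the annotated model of Gm12338 is 192 bases long against 540 for the Cox7c mRNA. Both copies were listed far above their member in both groups.

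Cox5b, a zinc-binding subunit of complex IV (chromosome 1, 36691449 to 36693681), stood at 13.7 FPKM after MEK1-low and 14.5 FPKM after MEK1-hi exosomes. Gm11273, its copy on chromosome 13 (21501029 to 21501418), stood at 318 and 292 FPKM. Ndufs3, a core subunit of complex I (chromosome 2, 90894634 to 90904827), stood at 18.0 and 17.8 FPKM and its copy Gm12251 on chromosome 11 (58392769 to 58393560) at 43.9 and 40.3 FPKM. Uqcrb was the remaining member below its copies.

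Uqcrb, a small subunit of complex III (chromosome 13, 66900617 to 66905378), stood at 58.4 FPKM after MEK1-low and 43.2 FPKM after MEK1-hi exosomes. Its copies Gm2962 and Gm16089 were at 107 and 104 FPKM and at 48.8 and 44.0 FPKM, respectively. Cox6c and Atp5o were above their copies, Cox6c at 259 and 239 FPKM against 153 and 145 FPKM for Cox6c2, and Atp5o at 103 and 96.1 FPKM against 32.4 and 30.4 FPKM for Gm5436. Of the 20 copies 10 were tested, and 0 of these were called in the authors' deposited table, beside 2.44% of all loci tested. The sources used here do not state how reads that match several loci were assigned, so a member and its copies cannot be told apart, and the levels of these 7 members are uncertain.

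**Figure D1:**
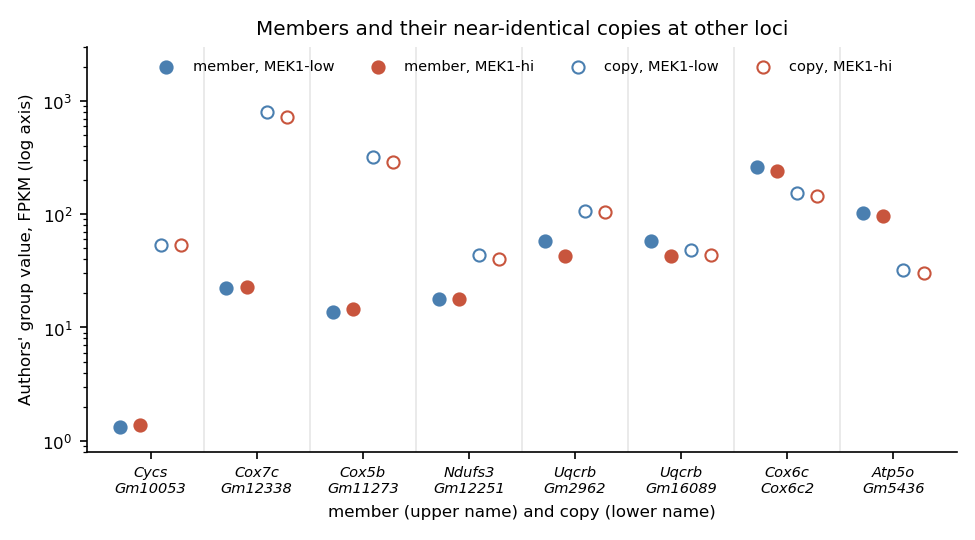
Authors' group values in FPKM (vertical log axis) of members (filled points) and of each near-identical copy above 10 FPKM (open points), after MEK1-low (blue) and MEK1-hi (red) exosomes. Cycs, Cox7c, Cox5b and Ndufs3 lie below their copies in both groups, and Cox6c and Atp5o lie above theirs.

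As a group the chain was expressed at a high level under both exosomes. The median member stood at 117 FPKM after MEK1-low and 106 FPKM after MEK1-hi exosomes, beside 12.1 and 12.2 FPKM for all loci tested at 1 FPKM or more. Of the 41 members 21 were at 100 FPKM or more in both groups. The members together took 1.04% of the summed FPKM of all loci after MEK1-low and 0.991% after MEK1-hi exosomes. Across the 41 genes the order of levels was nearly the same in both groups (Spearman's rho 0.994, a description across genes that share their libraries).

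**Figure D2:**
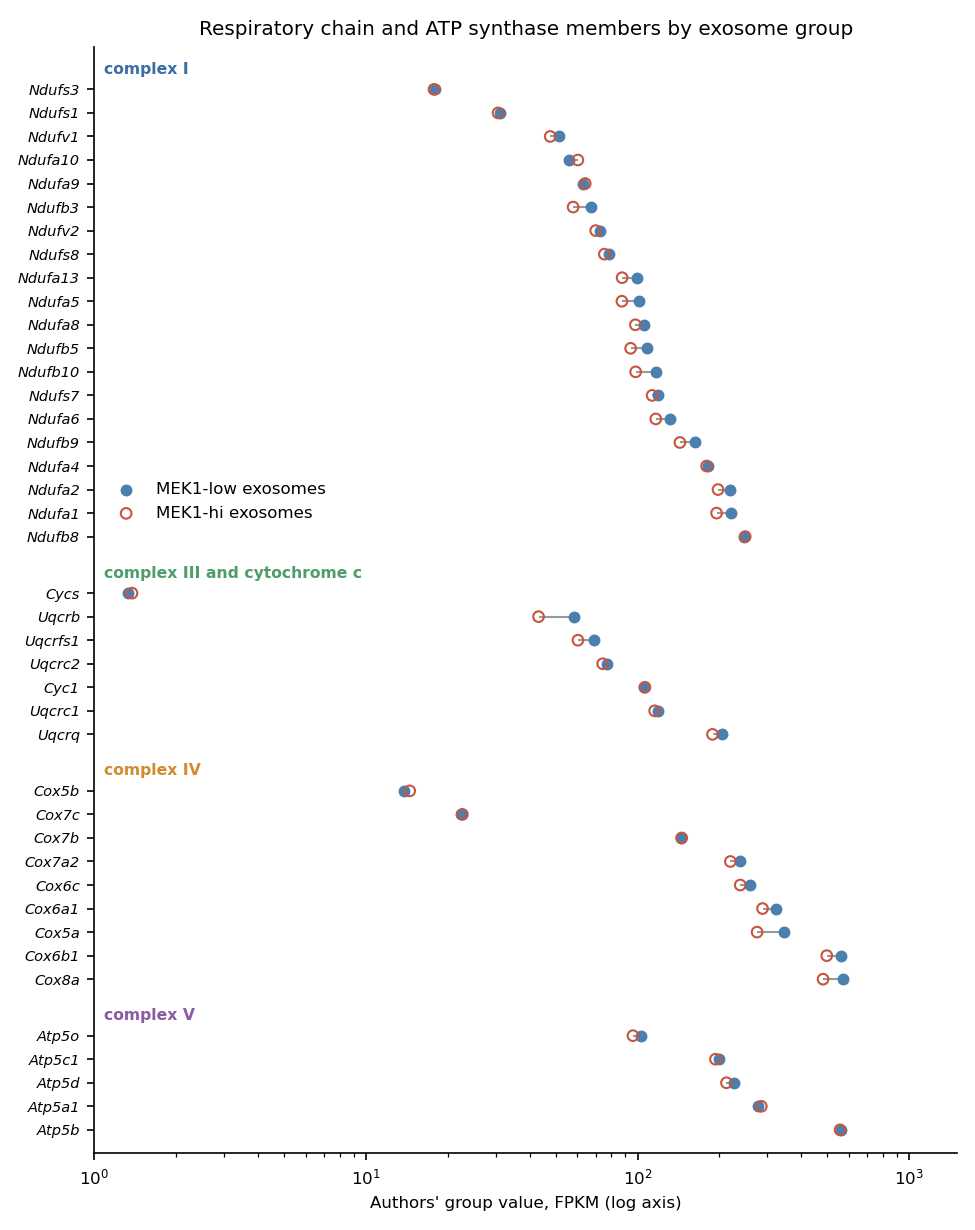
Authors' group value of each of the 41 members in FPKM (horizontal log axis), with MEK1-low (filled blue) and MEK1-hi exosomes (open red), ordered within each complex. The mean of both groups is 50 FPKM or more for 35 of 41 members, Cycs stands apart near 1 FPKM, and the points of the 2 groups lie close together for nearly all genes.

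None of the 41 members was called in the authors' deposited table, whose Cuffdiff test had covered all of them, beside 2.44% of the 12648 loci tested (0.751% higher and 1.69% lower). By unadjusted p-values below 0.05 in the authors' deposited table, 1 member was lower, Cox5a, and 0 were higher. The background for that rule was 8.66% of loci tested, 5.12% lower and 3.53% higher. In the authors' deposited table the smallest q-value of a member was 0.534 and the largest 0.999. Among loci with a mean of 50 FPKM or more, of which 4.52% were called, the smallest absolute log2 fold change called was 0.48, and all members lay inside that size.

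The values of most members were slightly lower after MEK1-hi exosomes. Of the 41, 32 (78.0%) had the lower value after MEK1-hi exosomes, beside 49.8% of all loci tested. With FPKM rescaled to equal group totals 26 members (63.4%) did, beside 42.1% of all loci tested. The median log2 fold change was -0.10, against 0.00 for all loci tested at 1 FPKM or more, with a range from -0.43 to 0.11. With equal totals these medians were -0.05 and 0.04. By complex, equal totals gave medians of -0.07 for complex I, 0.00 for complex III with cytochrome c, -0.08 for complex IV and 0.00 for complex V. An absolute log2 fold change under 0.2 was found in 35 members, or 85.4%, against 67.0% of all loci tested at 1 FPKM or more. Most members were at high levels, and 1888 other loci tested had a mean of 50 FPKM or more. Of those, without rescaling, 55.6% had the lower value after MEK1-hi exosomes. Their median log2 fold change was -0.02, and 70.4% were under 0.2 in absolute value. These counts and medians describe the group values and carry no test. In bulk RNA, fewer cells of a type and less RNA per cell cannot be told apart.

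**Figure D3:**
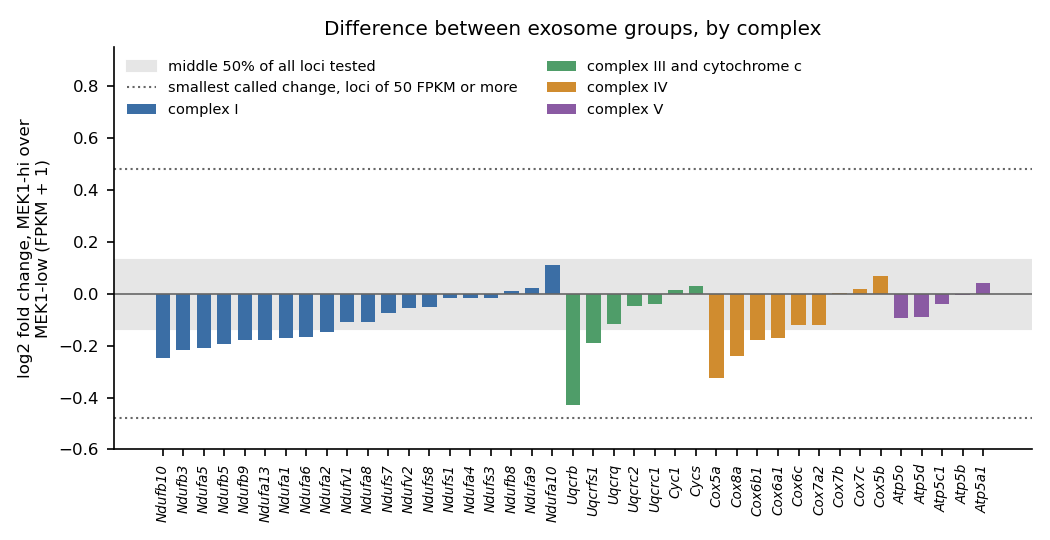
Log2 fold change of each member, MEK1-hi over MEK1-low on the log2(FPKM + 1) scale, coloured by complex, with the middle 50% of all loci tested at 1 FPKM or more in grey and the smallest called absolute change among loci of 50 FPKM or more as dotted lines at 0.48. No bar reaches a dotted line, and 32 of 41 values are below 0.

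Complex I was represented by 6 core subunits, which carry the flavin and iron-sulfur centres or bind close to them, and 14 accessory subunits, which stabilise the enzyme around that core. The core subunits were nearly level between groups, with log2 fold changes from -0.11 to -0.02 and a median of -0.05. Ndufv1, which holds the flavin that accepts electrons from NADH, stood at 51.5 FPKM after MEK1-low and 47.7 FPKM after MEK1-hi exosomes. Ndufv2, its iron-sulfur partner, stood at 72.9 and 70.1 FPKM.

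Ndufs1, the largest subunit, stood at 31.0 FPKM after MEK1-low and 30.6 FPKM after MEK1-hi exosomes. Ndufs7 and Ndufs8, which bind the last iron-sulfur centres before ubiquinone, were at 119 and 113 FPKM and at 78.2 and 75.4 FPKM, respectively. All 6 core subunits had the lower value after MEK1-hi exosomes, by at most 0.11 on the log2 scale.

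The accessory subunits of complex I had a median log2 fold change of -0.17 and spread more widely, from -0.25 to 0.11. Ndufb10, of the membrane arm, had the most negative value, at 117 FPKM after MEK1-low and 98.4 FPKM after MEK1-hi exosomes (p = 0.09995 and q = 0.789 in the authors' deposited table). Ndufb3 stood at 67.5 and 57.9 FPKM, and Ndufb5, another membrane arm subunit, at 108 and 94.3 FPKM. Ndufa5, of the matrix arm, stood at 101 and 87.6 FPKM. These values lay below 0 by 0.19 to 0.25 on the log2 scale, and none was called.

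Ndufa13, also known as Grim19, stood at 99.4 FPKM after MEK1-low and 87.7 FPKM after MEK1-hi exosomes. Ndufa1, a small membrane arm subunit on chromosome X, stood at 220 and 195 FPKM, Ndufa2, of the matrix arm, at 219 and 198 FPKM, and Ndufa6 at 131 and 117 FPKM. Ndufa8 stood at 106 and 98.1 FPKM. Ndufb9, in a locus joined with Rnf139 and Gm49356, stood at 162 and 143 FPKM. All 6 had the lower value after MEK1-hi exosomes, again without a call.

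The other accessory subunits were level or higher. Ndufa10 had the most positive value of all members, 55.8 FPKM after MEK1-low and 60.3 FPKM after MEK1-hi exosomes (p = 0.538 in the authors' deposited table). Ndufa9, which sits near the ubiquinone site, stood at 63.1 and 64.1 FPKM, and Ndufb8, in a locus joined with Sec31b and Gm20538, at 247 and 249 FPKM. Ndufa4, named as a complex I gene but now known as a subunit of complex IV, stood at 182 and 180 FPKM. Counting Ndufa4 with complex IV left the median of complex I at -0.11 and gave -0.12 for complex IV.

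Complex III and cytochrome c had a median log2 fold change of -0.05. Uqcrfs1, the Rieske iron-sulfur protein, stood at 68.9 FPKM after MEK1-low and 60.3 FPKM after MEK1-hi exosomes (p = 0.205 in the authors' deposited table). Cyc1, the cytochrome c1 that hands electrons to cytochrome c, stood at 105 and 106 FPKM. The core proteins Uqcrc1 and Uqcrc2 were at 119 and 116 FPKM and at 76.9 and 74.4 FPKM, respectively. The catalytic and core members thus differed by at most 0.19 on the log2 scale, Uqcrfs1 by the most.

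The small subunit Uqcrq stood at 205 FPKM after MEK1-low and 189 FPKM after MEK1-hi exosomes. Uqcrb had the largest difference of any member, a log2 fold change of -0.43 (p = 0.274 in the authors' deposited table). With its copies added, Uqcrb stood at 217 and 193 FPKM, a log2 fold change of -0.17. The difference listed for Uqcrb alone was thus larger than that of the summed signal of the gene and its copies.

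Complex IV held the single member with an unadjusted p under 0.05, and had a median log2 fold change of -0.12. Cox5a, a matrix-side subunit on chromosome 9 (57521274 to 57532426), stood at 345 FPKM after MEK1-low and 275 FPKM after MEK1-hi exosomes, with -0.33 as its log2 fold change (p = 0.0439 and q = 0.534 in the authors' deposited table). Cox8a, a small membrane subunit, stood at 570 and 482 FPKM (p = 0.0970 in the authors' deposited table). Cox6b1, which faces the space between the membranes, stood at 562 and 497 FPKM. These 3 also had the highest listed levels of complex IV after MEK1-low exosomes, copies not counted. With their copies added, Cox7c stood at 818 FPKM and Cox6c at 415 FPKM after MEK1-low exosomes.

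Cox6a1 stood at 325 FPKM after MEK1-low and 288 FPKM after MEK1-hi exosomes, and Cox7a2 at 239 and 220 FPKM. Cox7b was level at 145 FPKM in both groups. Cox5b and Cox7c, listed at 0.07 and 0.02 on the log2 scale, had the opposite sign once their copies were added, at -0.11 and -0.13. The sign of these small differences therefore turned on which locus was read.

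Among complex IV genes with isoforms known from other tissues, the listed signal was mostly that of the ubiquitous form. Cox6a2, the heart and muscle form of Cox6a1, stood at 2.45 FPKM after MEK1-low and 2.43 FPKM after MEK1-hi exosomes, and Cox7a1, the muscle form of Cox7a2, at 3.31 and 4.50 FPKM. Cox6b2, the testis form of Cox6b1, stood at 0.567 and 0.297 FPKM and was not tested. Cox8b, Cox8c and Cox7b2 were listed at 0 in both groups, as were Cyct, the testis form of cytochrome c, and Ndufa4l2, the hypoxia-induced relative of Ndufa4. Cox7a2l, a Cox7a2 relative that joins complexes III and IV, stood at 72.8 and 70.9 FPKM. Of these isoforms 3 were tested, Cox6a2, Cox7a1 and Cox7a2l. Of the 3, 0 were called in the authors' deposited table, beside 2.44% of all loci tested.

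Complex V was the most even of the 4 sets of members, with all 5 within 0.10 of no change on the log2 scale. The median of the 5 was -0.04. Outside the members, 13 other ATP synthase subunits spread more widely, from -0.38 to 0.18 with a median of -0.09. Atp5a1 and Atp5b, the alpha and beta subunits of the catalytic head, stood at 277 FPKM after MEK1-low and 285 FPKM after MEK1-hi exosomes and at 559 and 557 FPKM. The stalk subunits Atp5c1 (gamma) and Atp5d (delta) were at 199 and 194 FPKM and at 226 and 212 FPKM, respectively. Atp5o, of the peripheral stalk, lies in a locus joined with Donson. Its levels were 103 and 96.1 FPKM.

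Complex I members summed to 2250 FPKM after MEK1-low and 2084 FPKM after MEK1-hi exosomes, complex III with cytochrome c to 635 and 590 FPKM, complex IV to 2481 and 2184 FPKM and complex V to 1364 and 1344 FPKM. Their shares of the total FPKM of the group were 0.349% and 0.333%, 0.0983% and 0.0942%, 0.384% and 0.349%, and 0.211% and 0.215%. Among the sets, complex IV differed most in its share, and the share of complex V was slightly higher after MEK1-hi exosomes.

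Median log2 fold changes of the members were more negative in the classes of shorter mRNA. The 21 members with a principal mRNA under 1000 bases had a median log2 fold change of -0.17, the 16 from 1000 to under 2000 bases one of -0.05, and the 4 of 2000 bases or more one of 0.04. Spearman's rho between log2 fold change and length was 0.52 over the 41 members, a description across genes. Among 1432 other single-gene coding loci with a mean of 50 FPKM or more, rho was 0.18. Their medians in the same length classes were -0.08, -0.06 and 0.01. They were not free of related genes, holding further subunits such as Uqcr10 and Ndufa7, and Gm11273, the copy of Cox5b. Of those other loci, 66.0%, 63.6% and 48.7% had the lower value after MEK1-hi exosomes, against 18 of 21, 13 of 16 and 1 of 4 members. The members were not filtered in the same way, as 35 of 41 had a mean of 50 FPKM or more and 3 lay in joined loci. Of the 4 longest, Ndufs1 and Cycs had a mean under 50 FPKM. The part of mRNA length in the members' differences was not tested.

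**Figure D4:**
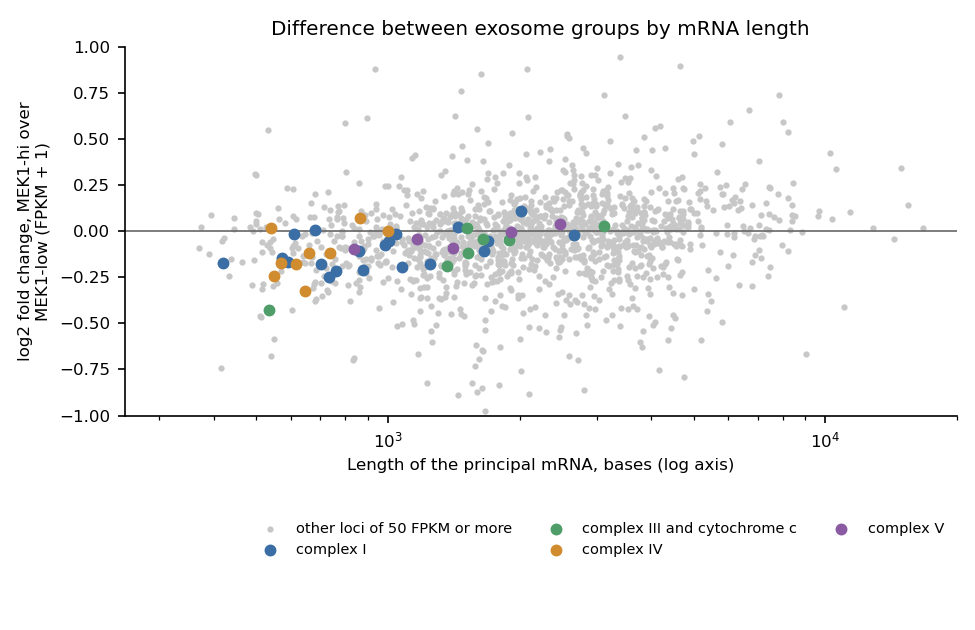
Log2 fold change, MEK1-hi over MEK1-low on the log2(FPKM + 1) scale, against the length of the principal mRNA in bases (log axis), for the 41 members by complex and for 1419 other loci of 50 FPKM or more in grey, 13 more lying beyond the axes. The shortest members lie mostly below 0 and the longest close to it.

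Nuclear respiratory factor 1 and GABP, an ETS factor, are known activators of respiratory chain genes. RefSeq promoters (GRCm38.p6, 250 bases before to 50 after the start) were matched for 32 of the 41 members. The NRF1 motif, searched on both strands as the letters GCGCA, any base and GCGC in direct succession, was found in 7 of the 32 (21.9%), beside 5.19% of all 27025 genes with a promoter and 11.99% of 9192 tested genes outside the members. The matches are printed below, 30 bases each in the gene's direction with the motif or its reverse complement in capitals, to show that the matches lie at different places and in members of complexes I, III, IV and V. Cox6a1 and Uqcrc1 each held the motif at 2 places.

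Atp5c1, chr2:10080430-10080459, minus strand: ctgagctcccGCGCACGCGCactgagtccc
Ndufa8, chr2:36049349-36049378, minus strand: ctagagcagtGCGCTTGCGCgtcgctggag
Cox6a1, chr5:115349101-115349130, minus strand: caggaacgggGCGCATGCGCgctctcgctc
Cox6a1, chr5:115349056-115349085, minus strand: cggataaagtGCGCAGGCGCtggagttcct
Ndufa5, chr6:24527697-24527726, minus strand: tgtgtgagctGCGCAGGCGCaaatctacct
Uqcrc1, chr9:108936643-108936672, plus strand: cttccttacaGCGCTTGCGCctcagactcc
Uqcrc1, chr9:108936668-108936697, plus strand: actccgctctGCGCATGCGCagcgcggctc
Ndufa6, chr15:82354249-82354278, minus strand: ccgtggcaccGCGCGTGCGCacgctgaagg
Atp5o, chr16:91931602-91931631, minus strand: gctggcgcgcGCGCGTGCGCtctggcgcca

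The 7 members with the motif stood between 101 and 325 FPKM after MEK1-low exosomes, and their median log2 fold change was -0.11, against -0.07 for the 25 without it. CCGGAA, the core of ETS sites, was found in 12 of 32 members (37.5%), in 16.7% of all genes and in 33.2% of tested genes. ATGGCG, the core of YY1 sites, which may include a start codon, was found in 11 of 32 (34.4%), in 10.2% of all genes and in 18.3% of tested genes. TGACGTCA, the CREB motif, was found in 3 of 32 (9.38%), the promoters of Cycs, Ndufa10 and Uqcrfs1, in 2.03% of all genes and in 3.64% of tested genes. A TATAAA box was found in 1 of 32 members (3.12%), in 15.7% of all genes and in 8.75% of tested genes, and TCAAGGTCA, bound by estrogen-related receptors, in 0 members, in 0.466% of all genes and in 0.337% of tested genes. The longer forms CCGGAAGT (ETS) and AANATGGCG (YY1), which lie within matches of the shorter ones, were found in 2 and 3 members (6.25% and 9.38%), in 4.31% and 2.76% of all genes and in 9.81% and 6.42% of tested genes. The share of CCGGAAGT in members was thus below that in tested genes. For NRF1, TGCGCA and the letters GCGC, any 2 bases and GCGC, both overlapping the first form, were found in 9 and 8 members (28.1% and 25.0%), in 8.79% and 6.997% of all genes and in 16.4% and 15.4% of tested genes. All were searched on both strands, and a match describes letters in a window only.

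The other genes of the pathway had small, uncalled differences too. Of 38 other subunits of complexes I, II, III and V, 0 were called in the authors' deposited table, beside 2.44% of all loci tested. Of the 38, 29 (76.3%) had the lower value after MEK1-hi exosomes, beside 49.8% of all loci tested. Their median log2 fold change was -0.09. By unadjusted p-values below 0.05 in the authors' deposited table, 1 of the 38 was lower and 0 were higher. The background was 5.12% of loci tested lower and 3.53% higher. The 1 was Ndufc2 of complex I, at 141 and 108 FPKM (q = 0.418). Ndufa3 and Ndufa7, 2 further accessory subunits of complex I, were at 182 and 146 FPKM and at 176 and 167 FPKM, respectively. Complex II, which feeds electrons from succinate, was lower in 4 of 4 members, with Sdhb at 190 and 157 FPKM and Sdhd at 123 and 110 FPKM.

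In complex III, Uqcr10 stood at 318 FPKM after MEK1-low and 269 FPKM after MEK1-hi exosomes and Uqcrh at 303 and 247 FPKM. In complex V, Atp5e stood at 613 and 599 FPKM and Atp5g3, of the proton-carrying ring, at 405 and 372 FPKM. The genes on mitochondrial DNA were joined into 4 loci, which all had the lower value, with log2 fold changes from -0.22 to -0.07. The locus of the complex IV genes mt-Co1, mt-Co2 and mt-Co3, joined with most others, stood at 6112 and 5619 FPKM. Values were thus mostly lower among the other nuclear subunits and in all 4 mitochondrial loci, by amounts that were not called. Beside them, 49.8% of all loci tested and 55.6% of other loci with a mean of 50 FPKM or more were lower. Unlike the members, these lists were not rescaled to equal group totals.

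Among factors that build the chain, values lay on both sides of no change. Of 15 complex I assembly factors 6 had the lower value, with a median of 0.05. Of 34 assembly factors of complexes II to V 17 did, with a median of 0.01, beside 49.8% of all loci tested. Ndufaf8 and Ndufaf3 were at 27.6 and 23.2 FPKM and at 19.8 and 21.2 FPKM, respectively. Cox17, a copper carrier in a joined locus, stood at 206 and 168 FPKM, and Uqcc2 at 108 and 113 FPKM. None of the 49 was called in the authors' deposited table, beside 2.44% of all loci tested. For an unadjusted p under 0.05 there were 0 higher and 0 lower, beside 8.66% of all loci tested.

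Genes of the large mitochondrial ribosome subunit, which makes the mitochondrially encoded subunits, were lower in 27 of 49 loci with a median of -0.02. That was 55.1%, beside 49.8% of all loci tested. Mrpl52 stood at 249.5 and 241 FPKM and Mrpl33, in a joined locus, at 183 and 176 FPKM. By unadjusted p-values below 0.05 in the authors' deposited table a single one was higher, Mrpl1, at 6.35 and 8.33 FPKM (q = 0.530). None was lower, and the background was 3.53% of loci tested higher and 5.12% lower. Of 14 carriers and pores of the mitochondrial membranes 10 (71.4%) had the lower value, beside 49.8% of all loci tested. Ucp2, the uncoupling protein of immune cells, stood at 2010 and 1899 FPKM and the phosphate carrier Slc25a3 at 235 and 256 FPKM. Neither list held a called gene, beside 2.44% of all loci tested.

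Of 16 regulators of mitochondrial biogenesis 14 were tested, with 7 lower and 7 higher values, beside 49.8% of all loci tested with lower values. Of the 14, 0 were called, beside 2.44% of all loci tested. Nrf1 stood at 12.1 FPKM in both groups and Gabpa at 12.8 and 14.8 FPKM. Tfam, which packages mitochondrial DNA and drives its transcription, stood at 17.2 and 13.9 FPKM (p = 0.404 in the authors' deposited table). Esrra, in a joined locus, and Polg had the highest listed values of these regulators, at 26.8 and 25.7 FPKM and at 24.2 and 25.5 FPKM, respectively. Ppargc1b, a coactivator of respiratory genes, stood at 2.69 and 1.87 FPKM (p = 0.0314 and q = 0.453 in the authors' deposited table). It was the 1 regulator lower at an unadjusted p under 0.05, beside 5.12% of loci tested.

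**Figure D5:**
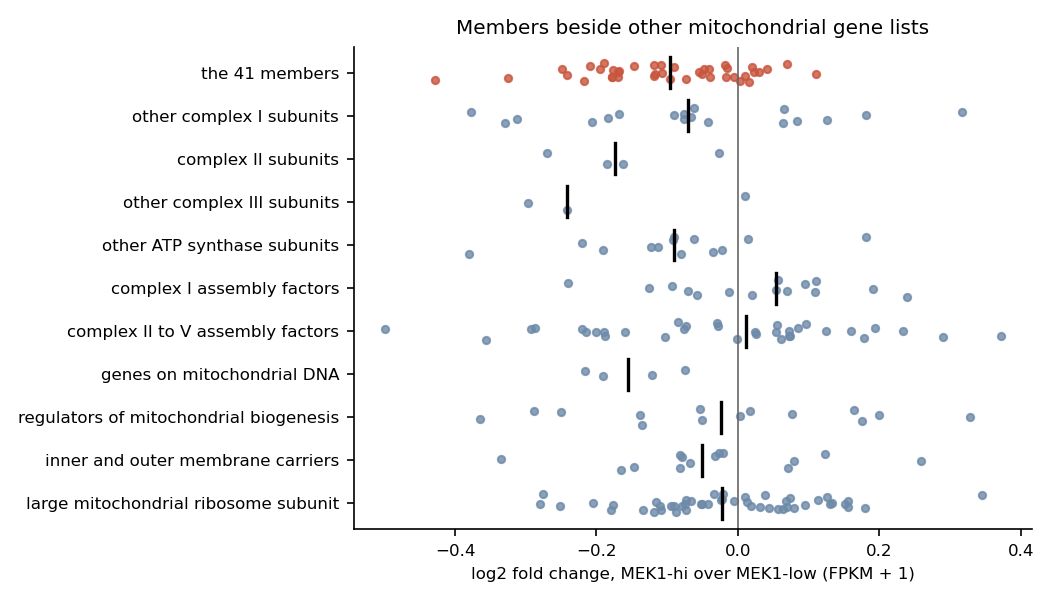
Log2 fold change, MEK1-hi over MEK1-low on the log2(FPKM + 1) scale, of each tested locus (points) in the 41 members and in 10 other mitochondrial gene lists, with the median of each list as a black line. The medians of the subunit lists lie below 0, from -0.24 to -0.07, and those of the assembly factor lists lie at 0.05 and 0.01.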

How the data were processed

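Tools listed per the submitters' processing notes are TopHat, Cufflinks, Cuffdiff and FastQC 0.73, and the build mm10, with no settings. The authors deposited 1 table of 53139 loci, with 1 FPKM value per group and, per the file headers, a test statistic (a score), p-value and q-value for the 12648 loci tested. The column GFP exo was matched to MEK1-low through the treatment label. Fold changes were computed anew with a pseudocount of 1 FPKM over loci of at least 1 FPKM in either group. Samples have no values of their own in this table, so every test of a gene is the authors' Cuffdiff test. Deposited q-values equalled a Benjamini-Hochberg adjustment of the p-values over loci tested to within 5.19e-07.

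Symbols were matched for 99.5% of identifiers. Gene positions and principal mRNAs came from GENCODE M21, copies from blastn 2.17.0, promoters from RefSeq. Tables were made with Python 3.11.15, pandas 2.3.3 and numpy 2.4.6. Only the Benjamini-Hochberg adjustment and the medians of log2 fold changes were checked on simulated data.

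Members and lists were chosen with earlier results of these data known. The search for copies, the alternatives built on it, the placing of Ndufa4, the length classes, the split of complex I and the 10 motifs were chosen after values were seen. Named were all members, called genes of each list (else its 2 highest), and the few genes with an unadjusted p under 0.05, Ppargc1b, Ndufc2, Mrpl1, Fcgr1 and S100a8, with Tfam, Nrf1, Gabpa and other markers, after their values were seen. Atp5md was not analysed here.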

Additional observations from a re-analysis of the deposited data

How the results depend on the processing

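With an unadjusted deposited p under 0.05 in place of q, 1 member and 1 other subunit counted as called in place of 0, and 1095 of all loci in place of 309. Other q thresholds, a minimum of 5 FPKM and leaving out joined loci kept these counts within 1.5 times or at 0. Of 48 medians under alternatives, 47 moved by less than 0.05 on the log2 scale and 47 were below 0, the exception being complex V at 0.00 with totals made equal. Adding copies to their members, leaving out members with copies and moving Ndufa4 to complex IV were chosen after seeing the data. The median of complex IV was -0.17 in place of -0.12 when members under 50 FPKM, Cox5b and Cox7c, were left out. Scaling to equal totals moved the share of members with lower values from 78.0% to 63.4% and that of all loci tested from 49.8% to 42.1%. It moved the median of members from -0.10 to -0.05, that of complex III from -0.05 to 0.00 and that of all loci at 1 FPKM or more from 0.00 to 0.04. No paired analysis was possible because the table holds 1 value per group, and for the same reason no replicate could be left out. The unknown depth limits what a missing call can show.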

Other observations

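Outside the mitochondrion, the 49 single-gene loci of cytosolic ribosomal proteins tested had mostly higher values after MEK1-hi exosomes. Of these, 12 (24.5%) had the lower value after MEK1-hi exosomes, beside 49.8% of all loci tested. Their median log2 fold change was 0.10, and 0 were called in the authors' deposited table, beside 2.44% of all loci tested. These genes were picked by symbol after values were seen, without a search for copies at other loci. By unadjusted p-values below 0.05 in the authors' deposited table, 1 of them was higher and 0 were lower. The background for that rule was 3.53% of loci tested higher and 5.12% lower.

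Signal listed at a processed copy was not limited to the members. Of 38 other subunits searched, 11 had a near-identical copy at 1 FPKM or more, and 7 lay below the summed value of their copies after MEK1-low exosomes. Atp5l, a membrane subunit of the ATP synthase, stood at 5.82 FPKM after MEK1-low and 4.86 FPKM after MEK1-hi exosomes. Its processed copy Gm10221, identical over 309 aligned bases, stood at 514 and 459 FPKM. Atp5h stood at 33.9 and 25.8 FPKM and its copy Gm10250 at 274 and 240 FPKM.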
